A study of Mus musculus with 12 samples.

Results

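The 10 genes that encode the enzymes of serine, mitochondrial folate, proline and asparagine synthesis were followed in mouse hearts labelled as knockout for PTCD1, a mitochondrial RNA-binding protein. They were chosen by symbol, in the order of the pathway steps: Phgdh, Psat1 and Psph for serine, Shmt2, Mthfd2, Mthfd1l and Aldh1l2 for the mitochondrial folate cycle, Aldh18a1 and Pycr1 for proline, and Asns for asparagine. All 10 were present among the 51911 features counted and had at least 1 read in each of the 12 libraries. Total RNA depleted of cytoplasmic ribosomal RNA was sequenced in 4 groups of 3 libraries: hearts of the PTCD1 knockout genotype (KO) and of the wild-type genotype (WT), each untreated (labelled control) or treated with CMC. CMC is a carbodiimide that attaches to bases of RNA, and per the labels' protocols it was used on isolated RNA, so a difference after CMC is a difference in the RNA read out and not a response of the mouse. The labels give every library as heart and as one or the other genotype. They do not name the allele, a Cre driver, strain, age or sex, nor say whether a number stands for 1 mouse or whether untreated and CMC libraries of 1 number share a heart, so p-values measure the spread between these libraries, which may in part be technical.

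Serine is made from the glycolytic intermediate 3-phosphoglycerate in 3 steps. In mitochondria its side-chain carbon is passed to tetrahydrofolate, oxidised and released as formate, which the cytosol uses for purines, thymidylate and methionine. Proline is made from glutamate and asparagine from aspartate. In a healthy heart most of these synthesis enzymes are scarce, and they are known as a set of genes that rises when mitochondrial translation or respiration fails in mammalian cells. PTCD1 is needed for the maturation of the mitochondrial large ribosomal RNA, as the title of the study says.

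The libraries held between 10389398 and 12462093 counted reads, of which between 2683284 and 3187748 came from nuclear genes. Mitochondrial transcripts took 73.0% ± 0.244 of reads in untreated KO libraries and 72.5% ± 0.395 in untreated WT libraries (SD, n = 3 each), and 75.2% ± 0.380 in CMC-treated KO libraries against 71.2% ± 1.04 in CMC-treated WT libraries. Levels below are therefore nuclear CPM (a gene's counts over all nuclear counts of the library, times 1000000), scaled by TMM over the 12 libraries, and are divided by gene length in kb wherever genes are compared with each other. Ptcd1 itself had 8.62, 5.46 and 6.04 CPM in untreated KO libraries, against 27.1, 25.02 and 25.6 CPM in untreated WT libraries, a log2 fold change of -1.94 (SE 0.21, adjusted p = 1.52e-19 by the quasi-likelihood test of edgeR, as for all adjusted p-values below unless another tool is named). Within each group pairs of libraries differed by more than sampling noise (chi-square per degree of freedom between 1.11 and 1.35), and WT CMC replicate 3 stood further apart, at 1.96 and 2.28 from the other 2 libraries of its group.

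All 10 synthesis genes rose in KO hearts, and for each of them every KO library lay above every WT library, in untreated and in CMC-treated RNA alike. The share of all nuclear genes whose groups lie apart in this way was not counted. A lack of overlap, here and below, is therefore a description only. In whole hearts a change in the number of cells of a type and a change in RNA per cell cannot be told apart. In untreated RNA the 10 genes held 0.132% ± 0.00367 of the nuclear counts of KO libraries and 0.00934% ± 0.000121 of those of WT libraries (SD, n = 3 each). Their median log2 fold change was 4.41, beside a median of -0.00 over all 12195 nuclear genes tested. Over those genes 29.1% were called higher and 28.7% lower at an adjusted p under 0.05, so a call alone is common in these hearts, and the sizes of the changes are given for each gene below. The 10 gene symbols were picked with earlier results of these data known, so the count of 10 is a description.

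**Figure D1:**
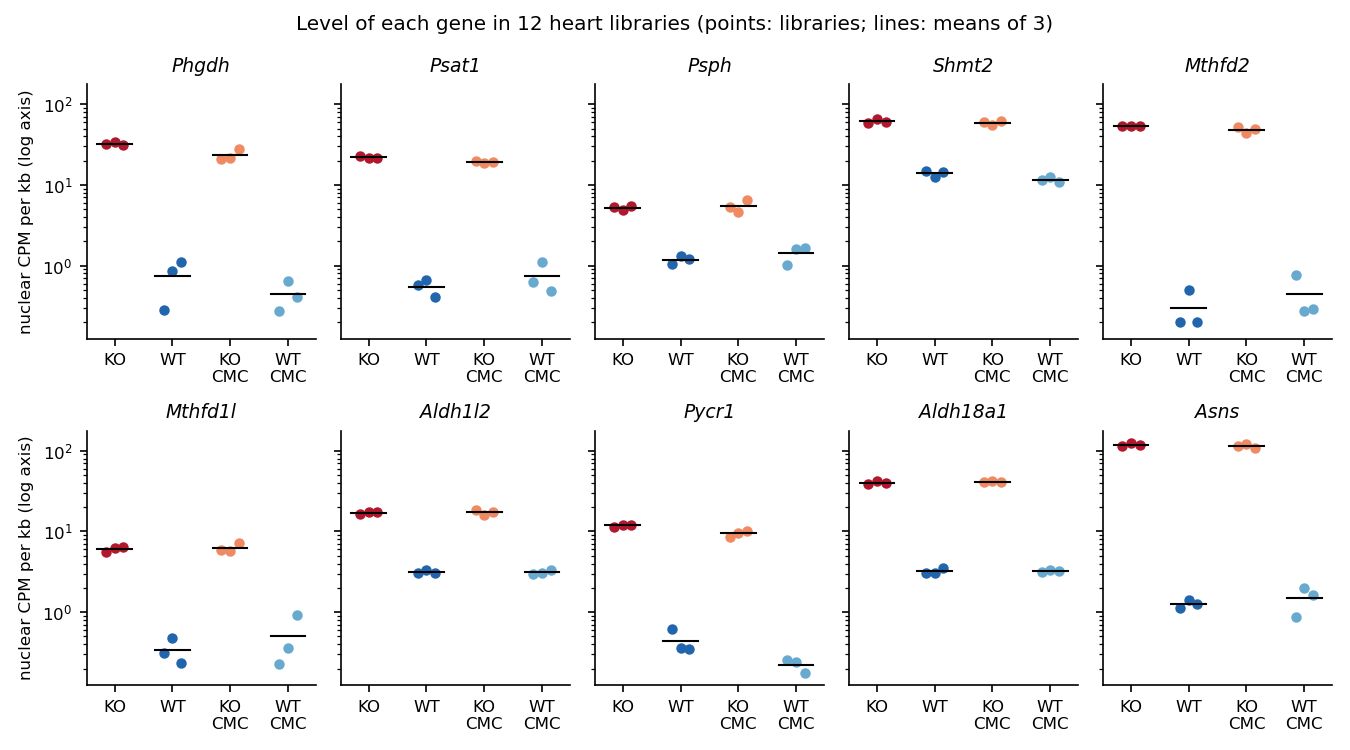
Level of each of the 10 synthesis genes in the 12 heart libraries, as nuclear CPM per kb of gene length on a log axis; each point is a library and each line the mean of 3, with KO left of WT for untreated and then for CMC-treated RNA. In every panel the KO points lie above the WT points, from Psph, where the lowest untreated KO library was 3.76 times the highest WT library in CPM, to Mthfd2, where it was 105 times.

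The serine pathway opens with Phgdh (chr3:98313170-98339990, minus strand, GRCm38), 3-phosphoglycerate dehydrogenase. It had 257, 265 and 245 reads in untreated KO libraries, against 2, 6 and 8 in untreated WT libraries. The WT libraries were thus close to the limit of detection, and the KO libraries had a coefficient of variation of 4.76%. The level was 80.7 ± 3.85 CPM in KO and 1.86 ± 1.06 CPM in WT libraries (SD, n = 3 each), a log2 fold change of 5.41 (SE 0.37, adjusted p = 6.22e-80). Mouse processed pseudogenes resemble this gene closely, so that a share of its reads could be assigned to them or left uncounted: the nearest in sequence, Gm7901, matches 1597 bases at 98.7% identity and had 45 reads over the 3 untreated KO libraries and 2 over the 3 WT libraries.

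Psat1 (chr19:15904678-15947337, minus strand), the aminotransferase of the next step, had 313, 288 and 291 reads in untreated KO libraries, against 7, 8 and 5 in untreated WT libraries. It rose by a log2 fold change of 5.31 (SE 0.33, adjusted p = 1.41e-86), close in size to Phgdh. Psph (chr5:129765558-129787449, minus strand), the phosphatase that releases serine, had 75, 66 and 74 reads in untreated KO libraries, against 13, 16 and 15 in untreated WT libraries. Its log2 fold change was 2.14 (SE 0.24, adjusted p = 2.44e-19), and its 95% interval of 1.66 to 2.62 did not reach those of Phgdh (4.69 to 6.13) or Psat1 (4.67 to 5.96). In KO hearts Phgdh stood at 32.5 ± 1.55 CPM per kb, Psat1 at 22.0 ± 0.525 and Psph at 5.22 ± 0.287, with no overlap. The order of Phgdh and Psat1 rests on the gene lengths used. Before division by length Psat1 was the higher, at 96.4, 92.5 and 92.5 CPM against 79.1, 85.1 and 77.9 CPM for Phgdh. In WT hearts Psph had the highest mean of these 3 genes, at 1.18 ± 0.131 CPM per kb, with Phgdh at 0.748 ± 0.427 and Psat1 at 0.547 ± 0.129, although the libraries of Psph and Phgdh overlapped. Psph shares 452 exon bases with Cct6a on the other strand, and since no source used here gives the strandedness of counting, reads of that stretch cannot be told apart. Cct6a had more reads than Psph, 1947 over the 3 untreated KO libraries and 930 over the 3 WT libraries. The part of such reads in the values of Psph was not tested.

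Of the mitochondrial folate enzymes, Shmt2 (chr10:127517123-127522444, minus strand), the hydroxymethyltransferase that takes the carbon from serine, was the most abundant of the 10 genes in WT hearts. It had 596, 632 and 594 reads in untreated KO libraries, against 133, 111 and 131 in untreated WT libraries. Its log2 fold change of 2.14 (SE 0.09, adjusted p = 9.06e-79) was the same to 2 decimals as that of Psph. Mthfd2 (chr6:83305691-83325908, minus strand), the dehydrogenase and cyclohydrolase of the next step, is known for high levels in embryos and tumours and low levels in most adult tissues. It had 611, 578 and 581 reads in untreated KO libraries, against 2, 5 and 2 in untreated WT libraries. With so few WT reads the size of the change was the least certain of those that were large: the log2 fold change was 7.42 with a 95% interval of 6.48 to 8.37 (adjusted p = 1.41e-122). Among the untreated KO libraries Mthfd2 had the lowest coefficient of variation of the 10 genes, 0.946%. With 3 libraries and these read counts so low a value can come from sampling alone, so it is not a trait of the gene.

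Mthfd1l (chr10:3973118-4167081, plus strand), the synthetase that releases formate, had 79, 86 and 89 reads in untreated KO libraries, against 4, 6 and 3 in untreated WT libraries. It rose by a log2 fold change of 4.11 (SE 0.41, adjusted p = 1.98e-36) and stayed near the bottom of the 10 genes in level, at 6.03 ± 0.479 CPM per kb in KO hearts and 0.341 ± 0.124 in WT hearts. Aldh1l2 (chr10:83487450-83534140, minus strand), the dehydrogenase that oxidises the formyl group to carbon dioxide in mitochondria with NADPH as a product, had 404, 404 and 414 reads in untreated KO libraries, against 67, 71 and 67 in untreated WT libraries. Its log2 fold change was 2.43 (SE 0.11, adjusted p = 1.04e-71). Within the 4 folate enzymes the 2 with the higher levels in WT hearts, Shmt2 and Aldh1l2, had the smaller log2 fold changes. Their 95% intervals (1.97 to 2.31 and 2.21 to 2.65) lay below that of Mthfd1l (3.30 to 4.92). The WT level is itself part of the fold change, so this is a description only. Aldh1l2 shares 1056 exon bases with D10Wsu102e on the other strand, and Shmt2 shares 32 with Ndufa4l2. D10Wsu102e had 1010 reads over the 3 untreated KO libraries and 646 over the 3 WT libraries. The part of such reads in the values of Aldh1l2 was not tested.

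Proline synthesis starts with Aldh18a1 (chr19:40550257-40588463, minus strand), the synthase that turns glutamate into pyrroline-5-carboxylate. It had 510, 537 and 506 reads in untreated KO libraries, against 36, 35 and 42 in untreated WT libraries. Its log2 fold change was 3.64 (SE 0.14, adjusted p = 6.03e-99). Pycr1 (chr11:120635712-120643769, minus strand), a mitochondrial reductase that completes proline, had 145, 149 and 149 reads in untreated KO libraries, against 7, 4 and 4 in untreated WT libraries. It rose by a log2 fold change of 4.71 (SE 0.38, adjusted p = 1.70e-56). Both proline genes were spread little among the KO libraries, and neither overlapped between genotypes.

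Asns (chr6:7675169-7693254, minus strand) makes asparagine from aspartate and glutamine. It had 1002, 1075 and 1018 reads in untreated KO libraries, against 9, 11 and 10 in untreated WT libraries. The level was 326 ± 18.4 CPM in KO and 3.49 ± 0.377 CPM in WT libraries (SD, n = 3 each), a log2 fold change of 6.53 (SE 0.27, adjusted p = 5.36e-146) or 92.5-fold. Per kb it was the fourth of the 10 genes in WT hearts and the first in KO hearts.

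**Figure D2:**
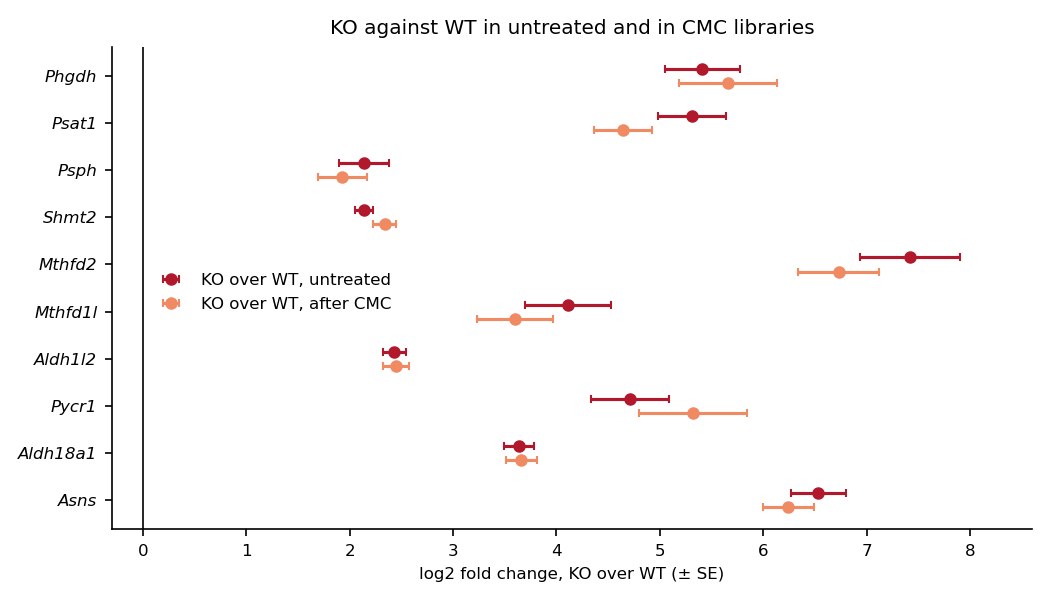
Log2 fold change of each gene, KO over WT, with its standard error as the bar, in untreated libraries and in CMC-treated libraries (3 against 3 each). All 20 points lie to the right of 0, between 1.93 (Psph after CMC) and 7.42 (Mthfd2 untreated); the widest bars belong to genes with a handful of reads in WT libraries.

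Promoter sequences are shown for the 2 genes that hold the letters of an element known to bind C/EBP and ATF factors together, of which the form TGATGAAA is known from human ASNS. RefSeq promoters (GRCm38.p6, from 250 bases before to 50 bases after the start) were at hand for 9 of the 10 genes, Psat1 with 2 of them and Aldh1l2 not matched. The letters TGATGNAA, on either strand, were found for Pycr1 and Asns, 2 of 9 genes, and in 4.51% of all 27025 genes with a promoter. The Pycr1 window covers bases -133 to -66 before the start (chr11:120643814-120643881, minus strand) and the Asns window bases -34 to -5 (chr6:7693214-7693243, minus strand). Starts here are those of RefSeq; the count tables' annotation begins Asns further upstream, so the Asns window lies inside the gene as counted. Both are written 5′ to 3′ on the gene's strand with the matched letters in capitals.
Pycr1: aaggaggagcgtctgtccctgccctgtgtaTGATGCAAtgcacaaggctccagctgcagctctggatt
Asns: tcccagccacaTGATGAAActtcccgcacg
The match lies 103 to 96 bases before the start of Pycr1 and 23 to 16 bases before the RefSeq start of Asns, on the gene's own strand in both. The ATF core TGACGT was found on the other strand in Psph, Mthfd1l and Aldh18a1, 3 of 9 genes, and in 8.37% of all genes with a promoter. Phgdh, Psat1, Shmt2 and Mthfd2 held neither set of letters in this window. A match is a description of these letters and not a binding site. The genes with a TGATGNAA match had log2 fold changes of 4.71 and 6.53. Those with a promoter but no such match lay between 2.14 (Psph and Shmt2) and 7.42 (Mthfd2). Whether the letters bear on the changes was not tested.

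The make-up of the set differed between genotypes. Summed over the 10 genes the level was 369 ± 13.3 CPM per kb in untreated KO libraries and 25.2 ± 0.765 in untreated WT libraries (SD, n = 3 each). Asns made up 32.3% ± 0.680 of that sum in KO libraries and 5.06% ± 0.645 in WT libraries. Mthfd2 made up 14.5% ± 0.606 in KO and 1.20% ± 0.741 in WT libraries. Shmt2 went the other way, with 16.7% ± 0.272 in KO and 55.4% ± 3.86 in WT libraries, and so did Aldh1l2, with 4.65% ± 0.143 in KO and 12.6% ± 0.895 in WT libraries. Aldh18a1 held a like share in both, 10.9% ± 0.145 in KO and 12.8% ± 0.843 in WT libraries.

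The order of levels per kb in untreated KO hearts was Asns, Shmt2, Mthfd2, Aldh18a1, Phgdh, Psat1, Aldh1l2, Pycr1, Mthfd1l and Psph, and no neighbours in that order overlapped between libraries. In untreated WT hearts it was Shmt2, Aldh18a1, Aldh1l2, Asns, Psph, Phgdh, Psat1, Pycr1, Mthfd1l and Mthfd2. There only Shmt2 stood clear of Aldh18a1 and Aldh1l2 clear of Asns, and the other 7 pairs of neighbours overlapped. The ratio of the highest to the lowest gene was 22.8 in KO and 46.5 in WT hearts. These orders and ratios rest on the gene lengths given with the counts, and an error in a length would not show as overlap between libraries.

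**Figure D3:**
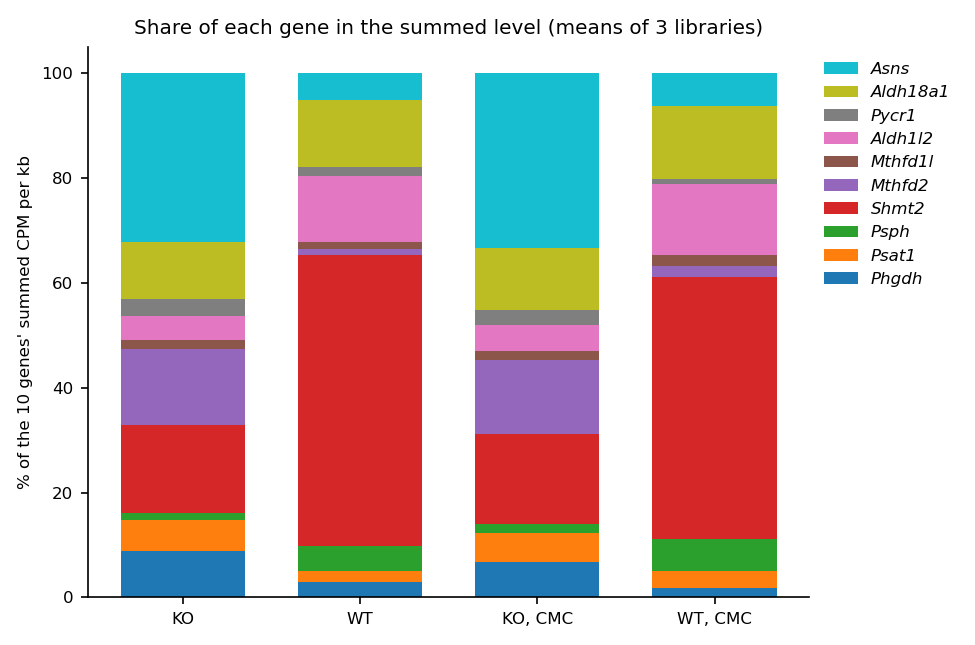
Share of each gene in the summed nuclear CPM per kb of the 10 genes, as the mean of 3 libraries in each group, with KO left of WT. Asns makes up 32.3% of the bar of untreated KO libraries and 5.06% of that of WT libraries, and Shmt2 16.7% and 55.4%; the bars of CMC-treated libraries look like the untreated ones of their genotype.

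For 5 of the 10 enzymes, Shmt2, Mthfd2, Mthfd1l, Aldh1l2 and Pycr1, a paralog that carries out the same or a like step was followed, and these paralogs rose less or fell in untreated RNA. Shmt1, the cytosolic hydroxymethyltransferase, had 20.01, 32.8 and 20.7 CPM in untreated KO libraries, against 11.1, 8.46 and 13.2 CPM in untreated WT libraries, 2.23-fold higher (SE of the log2 value 0.19, adjusted p = 1.67e-09). Mthfd1, the cytosolic enzyme that covers the steps of Mthfd2 and Mthfd1l, rose by 0.80 (SE 0.11, adjusted p = 2.24e-12). Mthfd2l, the other mitochondrial enzyme of the Mthfd2 step, fell, with 6.47, 4.50 and 3.82 CPM in KO libraries, against 8.33, 10.9 and 11.1 CPM in WT libraries (log2 -1.02, SE 0.27, adjusted p = 0.000303). Aldh1l1, the cytosolic counterpart of Aldh1l2, fell too (log2 -2.06, SE 0.52, adjusted p = 2.67e-05), at 0.924 to 1.28 CPM in KO and 3.82 to 5.20 CPM in WT libraries. Pycrl, which also completes proline, rose (log2 0.91, SE 0.26, adjusted p = 0.000878). In CMC-treated RNA the calls for Shmt1, Mthfd1 and Aldh1l1 were the same, while Mthfd2l (log2 -0.52, adjusted p = 0.101) and Pycrl (log2 0.63, adjusted p = 0.0535) did not pass. Pycrl did pass under 6 of 12 alternatives (adjusted p between 0.00342 and 0.0416), among them the replicate block (adjusted p = 0.0388) and the fit without WT replicate 2 (log2 1.09).

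The ratio of an enzyme to its paralog within a library needs no scaling between libraries. The log2 ratio of Mthfd2 to Mthfd2l in reads per kb was 5.76, 6.25 and 6.47 in untreated KO libraries, against -2.36, -1.59 and -2.77 in untreated WT libraries, so the enzyme that was rarer in WT hearts was the more abundant in KO hearts. The same turn was seen for Pycr1 over Pycrl, at 0.58, 0.38 and 0.85 in KO libraries against -2.84, -3.58 and -3.01 in WT libraries. Mthfd1l stayed below Mthfd1 in both genotypes, at -1.20, -1.19 and -1.09 in KO libraries against -4.28, -4.02 and -4.91 in WT libraries. Shmt2 exceeded Shmt1 in both, by 3.32 ± 0.32 in KO and 2.32 ± 0.21 in WT libraries, as did Aldh1l2 over Aldh1l1, by 6.01 ± 0.22 in KO and 1.63 ± 0.22 in WT libraries. For all 5 ratios the 3 KO libraries lay above the 3 WT libraries in untreated and in CMC-treated RNA. The exact two-sided permutation test of each gave p = 0.1, the smallest that 3 against 3 allows.

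**Figure D4:**
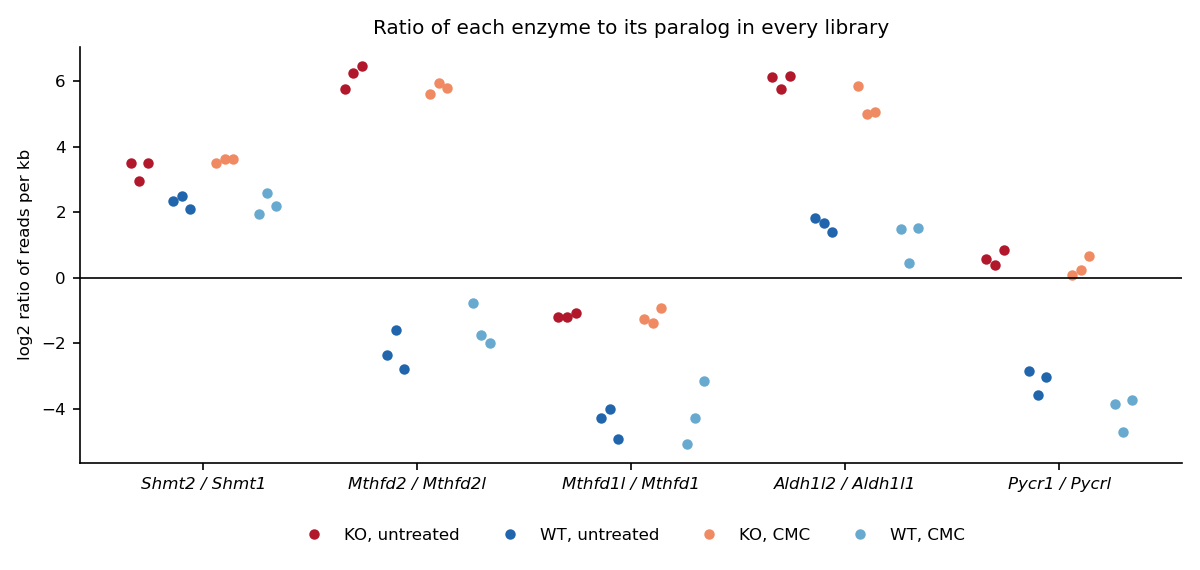
Log2 ratio of reads per kb of each synthesis enzyme to its paralog in every library, with KO left of WT for untreated and then for CMC-treated RNA; the line at 0 marks equal levels. For Mthfd2 over Mthfd2l and Pycr1 over Pycrl the KO points lie above 0 and the WT points below it.

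Other genes that feed or use these pathways moved in both directions. Of 42 such genes 35 had enough reads to be tested in untreated libraries, and 14 rose, 10 fell and 11 did not pass, with a median log2 fold change of 0.25. The genes that rose were 40% and those that fell 28.6% of the 35, beside 29.1% and 28.7% over all nuclear genes. Cth, the lyase that makes cysteine from cystathionine, rose the most of them, with 19.7, 18.9 and 23.2 CPM in KO libraries, against 2.43, 1.76 and 1.73 CPM in WT libraries (log2 3.36, SE 0.37, adjusted p = 1.28e-26). Among methionine-cycle genes Ahcy, which splits S-adenosylhomocysteine, rose by 1.29 (SE 0.21) and Mtr, methionine synthase, fell (log2 -1.20, SE 0.07). Atic, which uses formyl groups in purine synthesis, rose by 1.27 (SE 0.11), and Got1, the cytosolic aspartate aminotransferase, by 1.01 (SE 0.04).

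Of 6 genes of glycine cleavage and threonine breakdown 3 had enough reads to be tested in untreated libraries. These 3, Gcat, Gcsh and Dld, were called lower, beside 28.7% of all nuclear genes tested. Their log2 fold changes ran from -1.38 for Gcat to -0.26 for Dld, with a median of -0.56. After CMC 1 of these 3 was higher, 1 lower and 1 did not pass. In untreated RNA Gcat had 3.08, 2.89 and 4.13 CPM in KO libraries, against 10.1, 5.64 and 10.7 CPM in WT libraries (log2 -1.38, SE 0.31, adjusted p = 1.80e-05). Gcat was also the gene that was lower after CMC (log2 -1.12, SE 0.32, adjusted p = 0.00131). Dld, whose product also serves other enzymes, was the one that was higher after CMC (log2 0.22, SE 0.09, adjusted p = 0.0314), but that call was lost with DESeq2 (adjusted p = 0.344) and without any 1 of 4 of the 6 libraries (adjusted p between 0.0942 and 0.245), and it was 0.42 without WT replicate 3. The other members of that list were Gldc, Amt and Tdh. Of 4 other proline genes 1, Pycrl, rose, 2 fell and 1 did not pass. Aldh4a1, which oxidises the product of proline breakdown to glutamate, had 23.7, 20.9 and 21.9 CPM in KO libraries, against 61.8, 61.3 and 63.1 CPM in WT libraries (log2 -1.48, SE 0.12, adjusted p = 7.38e-29). Oat fell as well, and Prodh, which opens proline breakdown, did not pass the test (log2 -0.09, adjusted p = 0.667). Of the 5 other mitochondrial folate genes tested none rose, and only Mthfd2l fell. Of the 8 cytosolic folate, purine and thymidylate genes 4 rose, 1 fell and 3 did not pass.

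**Figure D5:**
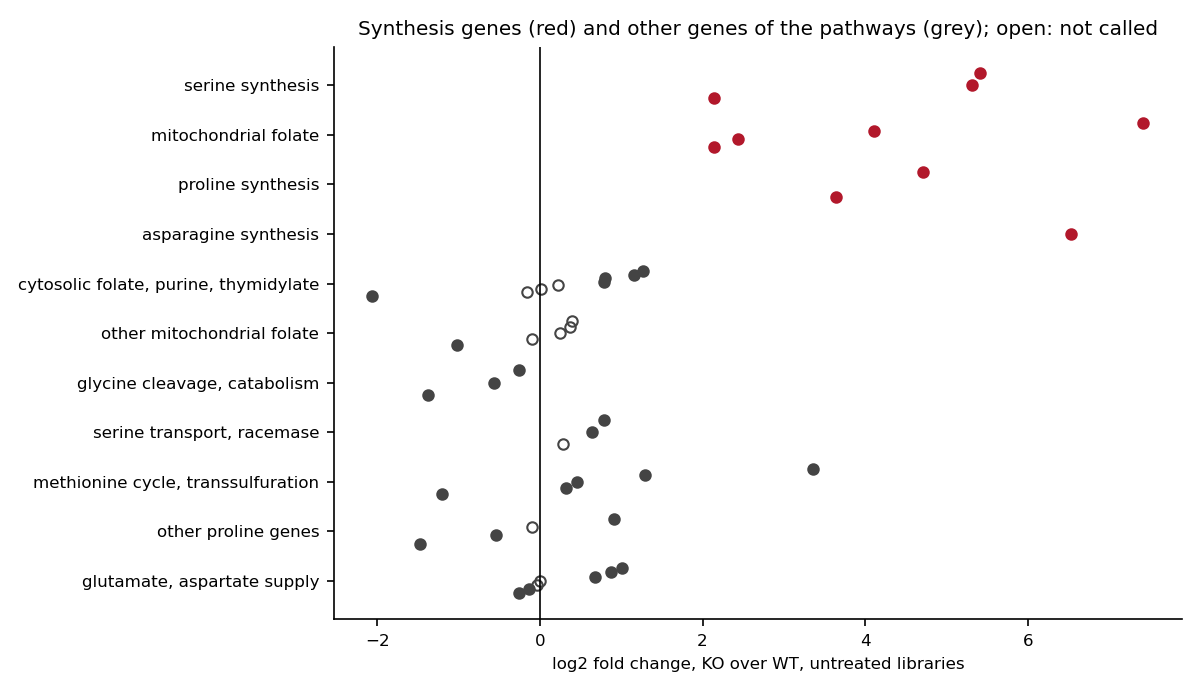
Log2 fold change, KO over WT, in untreated libraries for the 10 synthesis genes (red, top 4 rows) and for 35 other genes of the pathways (grey, by role); filled points passed an adjusted p under 0.05 and open points did not. The 10 red points lie between 2.14 and 7.42, and the grey points between -2.06 and 3.36.

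Transcription factors known to act on the synthesis genes were read from a list of 15 genes of the integrated stress response and its relatives. The list was chosen with earlier results known and also holds genes that are not such factors, among them Eif2ak1, Oma1 and Ppp1r15a. Of the 15 genes 11 rose, 1 fell and 3 did not pass in untreated libraries. That is 73.3% higher and 6.67% lower, beside 29.1% and 28.7% over all nuclear genes tested. Atf4, a factor made when translation initiation is restrained, had 656, 676 and 640 CPM in untreated KO libraries, against 85.3, 88.4 and 82.5 CPM in untreated WT libraries (log2 2.95, SE 0.06, adjusted p = 8.65e-147). Atf5 rose by 2.36 (SE 0.13) and Ddit3 by 3.49 (SE 0.15). Trib3, a pseudokinase known to be induced with them, had 39.1, 45.3 and 41.97 CPM in KO libraries, against 0.694, 1.06 and 0 CPM in WT libraries. Without WT replicate 2 its log2 fold change was 6.76, against 6.08 (SE 0.65) with it.

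The genes outside the set whose profile over the 12 libraries was nearest to the median profile of the 10 genes were Maoa, Pmm1, Lgals3, Ighg1 and Otub2. Nearness was the Euclidean distance between log2 CPM profiles, with a prior count of 0.5, set to 0 at the mean of untreated WT libraries. Maoa, monoamine oxidase A, was at a distance of 0.630, with 179, 194 and 206 CPM in untreated KO libraries, against 7.29, 9.51 and 6.93 CPM in untreated WT libraries. The others lay between 1.02 and 1.19. The 10 genes themselves lay between 1.59 (Mthfd1l) and 7.61 (Mthfd2) from their median, so these neighbours are nearer to it than any of them. Ighg1, an immunoglobulin constant gene, had between 6 and 13 reads in each KO library and none in each of the 6 WT libraries, so its distance depends on that prior count and is not a measured likeness.

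In CMC-treated RNA the comparison of KO with WT gave calls for the same 10 genes. All 10 were called higher, beside 27.2% of 12198 nuclear genes called higher and 26.8% called lower, and their median log2 fold change was 4.15. Their share of nuclear counts was 0.122% ± 0.00365 in CMC-treated KO libraries and 0.00899% ± 0.000635 in CMC-treated WT libraries (SD, n = 3 each). Phgdh had 166, 151 and 193 reads in KO libraries, against 2, 5 and 3 in WT libraries (log2 5.66, SE 0.48, adjusted p = 7.63e-19). Mthfd2 had 575, 433 and 482 reads in KO libraries, against 8, 3 and 3 in WT libraries, and its log2 fold change was 6.73 (SE 0.39), or 7.36 without WT replicate 1. Asns had 983, 946 and 830 reads in KO libraries, against 7, 17 and 13 in WT libraries (log2 6.24, SE 0.25). These 3 genes had the largest log2 fold changes of the 10 after CMC.

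Pycr1 had 106, 108 and 112 reads in CMC-treated KO libraries, against 3, 3 and 2 in CMC-treated WT libraries (log2 5.32, SE 0.52). Psat1 had 266, 224 and 226 reads in KO libraries, against 8, 15 and 6 in WT libraries (log2 4.64, SE 0.28). Mthfd1l was the gene that depended most on the WT library that stood apart: it had 81, 72 and 88 reads in KO libraries, against 3, 5 and 12 in WT libraries, and its log2 fold change was 3.60 (SE 0.37) with WT replicate 3 and 4.35 without it. Aldh18a1 (log2 3.66), Aldh1l2 (2.45), Shmt2 (2.34) and Psph (1.93) followed, and without WT replicate 3 their log2 fold changes were 3.66, 2.50, 2.31 and 2.05. All 10 genes remained called without that library.

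Whether the KO effect differed between CMC-treated and untreated RNA was tested in 1 fit over the 12 libraries. None of the 10 genes passed, none reached an unadjusted p under 0.05, and DESeq2 called none either, beside 1.08% of 12786 genes called higher and 0.391% called lower. The difference in log2 fold change, CMC minus untreated, was between -0.68 for Mthfd2 (95% interval -1.91 to 0.54) and 0.62 for Pycr1 (-0.64 to 1.88). These differences moved when single WT libraries were left out. That of Mthfd2 was -1.25 without untreated WT replicate 2 and -0.055 without WT CMC replicate 1, and that of Pycr1 was 0.31 without untreated WT replicate 1. That of Mthfd1l was -0.50 with WT CMC replicate 3 and 0.24 without it. For Phgdh, Psat1, Mthfd2, Mthfd1l and Pycr1 the intervals reach beyond 1 on the log2 scale, whereas Aldh1l2 (-0.31 to 0.36) and Aldh18a1 (-0.38 to 0.45) were bounded more tightly.

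Between CMC-treated and untreated RNA of KO hearts 2 of the 10 genes were lower and none was higher, beside 5.36% of 11967 genes called lower and 6.77% called higher. Phgdh had 52.8, 52.9 and 69.2 CPM in CMC-treated libraries, against 79.1, 85.1 and 77.9 CPM in untreated libraries (log2 -0.48, SE 0.09, adjusted p = 3.05e-05). Pycr1 had 33.7, 37.8 and 40.2 CPM in CMC-treated libraries, against 44.6, 47.8 and 47.4 CPM in untreated libraries (log2 -0.33, SE 0.11, adjusted p = 0.0268). The groups did not overlap for either gene, but the call for Pycr1 was lost without a filter on low counts (adjusted p = 0.051), with DESeq2 (adjusted p = 0.214) and without any 1 of 4 of the 6 libraries (adjusted p between 0.0614 and 0.166). Psat1 (log2 -0.21, adjusted p = 0.0535) and Mthfd2 (log2 -0.14, adjusted p = 0.108) did not pass. Psat1 did with total-count scaling (log2 -0.225, adjusted p = 0.0358), and Mthfd2 did without KO CMC replicate 1 (log2 -0.21, adjusted p = 0.0249), where Pycr1 did not. The other 6 genes had log2 values between -0.06 and 0.07.

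In WT hearts only Psph, Shmt2, Aldh1l2, Aldh18a1 and Asns had enough reads for a test of CMC, and none of these 5 was called, beside 0.967% of 12099 genes called higher and 1.26% called lower. Shmt2 alone had an unadjusted p under 0.05, with 35.6, 38.7 and 34.2 CPM in CMC-treated libraries, against 46.1, 39.1 and 45.4 CPM in untreated libraries (log2 -0.27, adjusted p = 0.249), and DESeq2 called none of the 10. The tested 5 are the genes with more WT reads, so they do not stand for the 10.

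The summed level of 6 cardiomyocyte markers, among them Myh6, Tnnt2 and Ryr2, was between 33192 and 33303 CPM in untreated KO libraries and between 69313 and 71796 CPM in untreated WT libraries, and all 6 were lower in KO hearts. These markers were present in every library. The 6 fibroblast markers summed to between 1959 and 1985 CPM in KO and between 1948 and 2044 CPM in WT libraries, 3 of them higher and 2 lower. The 5 macrophage markers summed to between 280 and 292 CPM in KO and between 244 and 250 CPM in WT libraries, 2 of them higher. The 5 endothelial markers summed to between 985 and 1024 CPM in KO and between 1025 and 1088 CPM in WT libraries, 1 of them higher and 3 lower. The 4 cell-cycle markers summed to between 67.8 and 82.5 CPM in KO and between 22.2 and 31.7 CPM in WT libraries. Only 2 of the 4 had enough reads to be tested, and both were higher. Most of the sum was Mki67, at 59.4, 48.2 and 52.5 CPM in untreated KO libraries, against 22.9, 22.9 and 15.6 CPM in untreated WT libraries. Markers of smooth muscle, fat and red blood cells were lower or did not pass, and the 3 liver markers were at 0 in all untreated libraries. The part of these shifts in the levels of the synthesis genes was not tested.

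The authors' deposited table, whose log2 fold changes are KO over WT like those above (Ptcd1 -1.93), gives log2 7.50 for Mthfd2, 6.57 for Asns, 5.46 for Phgdh, 5.35 for Psat1, 4.76 for Pycr1 and 4.16 for Mthfd1l. For the other 4 genes the authors' deposited table gives 3.66 for Aldh18a1, 2.45 for Aldh1l2, 2.16 for Psph and 2.16 for Shmt2. In the authors' deposited table of gene ontology terms, 4 of 4 genes of L-serine biosynthesis, 6 of 8 of L-serine metabolism, 9 of 15 of serine family biosynthesis and 16 of 35 of serine family metabolism are counted as changed. For folate the authors' deposited table counts 5 of 5 genes of 10-formyltetrahydrofolate metabolism, 12 of 20 of tetrahydrofolate metabolism and 12 of 24 of folic acid compounds. The p-values of these 7 terms in the authors' deposited table lie between 0.000243 and 0.00209. Their adjustment, background and share of changed genes over all features are not given there. Nor do the counts give a direction. In the edgeR fit above 29.1% of 12195 nuclear genes were called higher and 28.7% lower in untreated libraries, so a changed gene is common. The authors' threshold may differ, and their counts are given as a description. A search by name found no term for proline or asparagine synthesis among the authors' terms.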

How the data were processed

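Total RNA of mouse hearts was sequenced in 12 libraries, 3 in each of 4 groups. The submitters' processing notes name the mm10 build and, without a role, featureCounts 1.5.1, HISAT2 2.0.5, DESeq2 1.16.1 and SAMtools 1.5; their settings, like the strandedness of counting, are not given there. The authors deposited raw read counts per gene in a table for untreated and a table for CMC-treated libraries, read here as they are. The authors' deposited comparison holds a mean signal per gene, a log2 fold change, its score and p-values, and the authors' deposited gene ontology table holds p-values and counts of genes.

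Nuclear genes were tested with edgeR 4.0.16 in R 4.3.3 (filterByExpr, TMM over nuclear genes, quasi-likelihood test, Benjamini-Hochberg adjustment over all nuclear genes tested, called at 0.05), in 6 libraries for each pair of groups and in 12 for the difference of KO effects. The 36 mitochondrial features were left out of library sizes; 315 of the 51911 features carry no symbol. Standard errors are Wald errors from the negative binomial weights times the gene's quasi-dispersion, taken as at least 1, and 95% intervals use them; they cover the spread between libraries and counting error. Levels are CPM over nuclear counts. Log2 ratios to paralogs add 0.5 to each count. Look-alike transcripts were found with BLAST (blastn 2.17.0, at least 90% identity over 150 bases). Alternatives were TMM over all genes with the mitochondrial ones, total-count scaling, no filter, 1 fit over all libraries, a replicate block, DESeq2 1.42.0 and leaving out each library. The genes named are the 10 members, their paralogs, up to 5 other pathway genes each way with the largest change in untreated libraries, Ptcd1, 4 regulators and the 5 nearest profiles by distance; others named, such as Dld, Oat, Prodh and Gldc, were chosen after their values were seen. The 10 genes and the lists were chosen with earlier results of these data known.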

Additional observations from a re-analysis of the deposited data

Results flagged for a closer look

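Among the 10 synthesis genes and the 42 other pathway genes, Dld, the dihydrolipoamide dehydrogenase shared by the glycine cleavage system and other enzymes, stood out because its difference between KO and WT hearts was not the same in CMC-treated and untreated RNA. It had 342, 332 and 306 CPM in CMC-treated KO libraries, against 240.4, 249 and 348 CPM in CMC-treated WT libraries, and 303, 294 and 289 CPM in untreated KO libraries, against 366, 338 and 358 CPM in untreated WT libraries. The KO and WT libraries overlapped after CMC, where WT replicate 3 was the highest, and did not overlap in untreated RNA. The difference in log2 fold change, CMC minus untreated, was 0.4882 (SE 0.10, adjusted p = 0.00215 by the quasi-likelihood test of edgeR). It was 0.68 without WT CMC replicate 3, and with DESeq2 it was 0.49 and did not pass (adjusted p = 0.13). Under each other alternative run, the remaining left-out libraries included, the difference passed at an adjusted p under 0.05.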

How the results depend on the processing

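All 10 synthesis genes stayed called higher in KO hearts, untreated and after CMC, under every alternative run: TMM over all genes, total-count scaling, no filter, 1 fit over 12 libraries, the replicate block, DESeq2 and each left-out library. Under these alternatives between 2586 and 4395 nuclear genes were called higher in untreated KO hearts and between 2558 and 3803 after CMC. As the 10 genes were chosen with earlier results known, the kept calls are a description. The 10 log2 ratios to paralogs moved by less than their spread when a library was left out. For CMC against untreated RNA of KO hearts, 2 genes were called lower, 1 without a filter, 1 with DESeq2, 3 with total-count scaling, and between 1 and 2 when a library was left out, the 2 without KO CMC replicate 1 being Phgdh and Mthfd2 and not Pycr1; over all genes DESeq2 called 326 higher and 179 lower, against 810 and 641. For CMC in WT hearts 117 genes were higher and 153 lower; total-count scaling gave 189 higher, the fit over 12 libraries 203 and 233, DESeq2 33 and 55, and leaving out a library between 24 and 343 higher and between 49 and 406 lower, the highest counts being those without WT CMC replicate 3. For the difference of KO effects 138 were higher and 50 lower; total-count scaling gave 89 and 82, DESeq2 69 and 27, and leaving out a library between 54 and 421 higher and between 24 and 200 lower. The cause was not tested.

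Signs that turned belong to values that were not called. With total-count scaling Aldh1l2 had log2 -0.013 for CMC in KO hearts, 0.012 for CMC in WT hearts and -0.025 for the difference, and Aldh18a1 -0.017 for the difference; without a filter Aldh18a1 had -0.0037 for CMC in WT hearts. When a library was left out, the log2 values for CMC in KO hearts ran from -0.069 to 0.177 for Psph, from -0.075 to 0.089 for Mthfd1l and from -0.055 to 0.054 for Aldh1l2. For CMC in WT hearts they ran from -0.058 to 0.019 for Aldh1l2, from -0.040 to 0.081 for Aldh18a1 and from -0.039 to 0.497 for Asns. For the difference they ran from -0.141 to 0.645 for Phgdh, from -0.832 to 0.243 for Mthfd1l (the highest without WT CMC replicate 3), from -0.029 to 0.075 for Aldh1l2 and from -0.045 to 0.077 for Aldh18a1.

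Deviations of same-numbered libraries had correlations between -0.108 and 0.0702 over 7405 genes, and the numbers were not taken as pairs. Between untreated and CMC-treated KO libraries they were 0.0248, 0.0702 and 0.0341, against -0.0525 to 0.0191 for unlike numbers. In WT libraries the same-numbered values were -0.0162, 0.00684 and -0.0224. These small values do not settle whether such libraries share a heart. With the replicate block 2 synthesis genes were called lower after CMC in KO hearts, the same count as without it. For untreated KO against WT hearts the block gave 3538 genes higher and 3480 lower, against 3550 and 3497. The same 10 of 10 synthesis genes were called. Depth limits the size of the changes of Phgdh, Mthfd2, Mthfd1l, Pycr1, Psat1 and Asns, each with under 20 reads in every WT library.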
